A study of Mus musculus with 6 samples.

Results

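The proteasome genes were the 45 genes, of 12718 in the count tables, whose symbol begins with Psma to Psmg followed by a digit. Chromatin immunoprecipitation with sequencing (ChIP-seq) mapped RNA polymerase II on them, through its largest subunit RPB1 and an N-terminal domain antibody. The adrenal glands came from female mice of 10 to 14 months on a 129 sv X CD1 background, 3 of them WT and 3 Armc5(-/-) (knockout). All were crosslinked with 1% formaldehyde for 15 minutes. The labels give a different mouse number for each library, and they do not say which cells lost the gene or how the allele was made. ARMC5 is known as the substrate adaptor of a cullin ubiquitin ligase that marks RPB1 for destruction by the proteasome; Armc5 itself was not analysed here.

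The proteasome is the barrel-shaped protease that degrades ubiquitin-tagged proteins. Its core particle is built of alpha rings, which form the gate, and beta rings, which hold the catalytic sites, and the regulatory particle on its ends binds ubiquitin chains, unfolds the substrate with ATPases and feeds it in. Interferon induces alternative catalytic subunits that replace the constitutive ones in newly made particles (the immunoproteasome), together with the PA28 activator. These forms cut peptides for display on MHC class I.

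By role, 14 of the 45 genes encode the core particle. These are 7 alpha genes (Psma1 to Psma7) and 7 constitutive beta genes (Psmb1 to Psmb7). A further 17 encode the regulatory particle, as 6 ATPase genes (Psmc1 to Psmc6) and 11 non-ATPase genes (Psmd1, Psmd2, Psmd3, Psmd4, Psmd6, Psmd7, Psmd8, Psmd11, Psmd12, Psmd13 and Psmd14). The interferon-inducible class has 5 genes. Psmb8, Psmb9 and Psmb10 replace Psmb5, Psmb6 and Psmb7 in that order, and Psme1 and Psme2 form PA28. The remaining genes are 6 assembly chaperones (Psmd9, Psmd10 and Psmg1 to Psmg4), 2 further activators (Psme3 and Psme4) and Psmc3ip. The last matches the symbol rule but encodes a cofactor of meiotic recombination and no subunit. Psma8, Psmb11, Psmd5 and Psmf1 were not analysed here.

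The start regions of 2 inducible catalytic genes and of the constitutive genes they replace are shown because these pairs carry the comparison of classes. The sequences are the 200 bases before the transcription start in the RefSeq promoter table (build GRCm38.p6), on the strand of the gene. They lie at chr17:34197995-34198194 on the plus strand for Psmb8, chr14:54617996-54618195 on the minus strand for Psmb5, chr17:34187331-34187530 on the minus strand for Psmb9 and chr11:70525157-70525356 on the plus strand for Psmb6. For Psmb6 the start in that table lies 33 bases inside the RefSeq gene span used for lengths, so the last 33 bases printed are within that span; the 2 starts also differ for 4 other genes and coincide for Psmb8, Psmb5 and Psmb9. Capitals mark the letters that matched a searched motif.
Psmb8: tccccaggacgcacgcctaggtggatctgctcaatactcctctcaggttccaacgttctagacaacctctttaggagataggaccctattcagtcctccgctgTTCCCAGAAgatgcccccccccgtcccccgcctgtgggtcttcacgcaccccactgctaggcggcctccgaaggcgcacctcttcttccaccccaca
Psmb5: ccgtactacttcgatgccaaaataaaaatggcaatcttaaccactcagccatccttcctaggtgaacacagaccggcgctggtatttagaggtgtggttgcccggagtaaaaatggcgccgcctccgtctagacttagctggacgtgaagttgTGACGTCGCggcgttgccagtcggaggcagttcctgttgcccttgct
Psmb9: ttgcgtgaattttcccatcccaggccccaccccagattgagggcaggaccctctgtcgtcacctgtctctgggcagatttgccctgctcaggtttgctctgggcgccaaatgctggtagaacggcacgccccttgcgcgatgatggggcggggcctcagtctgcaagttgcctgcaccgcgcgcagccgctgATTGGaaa
Psmb6: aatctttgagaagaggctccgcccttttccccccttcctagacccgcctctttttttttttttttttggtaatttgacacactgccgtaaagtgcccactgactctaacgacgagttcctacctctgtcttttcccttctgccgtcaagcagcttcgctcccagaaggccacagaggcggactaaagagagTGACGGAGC

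The capitals in Psmb8 are the pattern TTCNNNGAA of an interferon gamma-activated site, at -97 from the start. Those in Psmb5 and Psmb6 are the antioxidant response element core TGACNNNGC, at -47 and -9, the kind of site through which NFE2L1 is known to drive constitutive subunit genes. Those in Psmb9 are the reverse complement of CCAAT at -8. Over windows of 300 bases (250 before and 50 after the start), searched on both strands, 38 of the 45 genes had an entry, and Psmb1, Psmb2, Psmb7, Psmc3, Psmd3, Psmd7 and Psmg2 had none. TTCNNNGAA was in 3 of the 38 (7.89%) and in 9.55% of 27025 gene windows. TGACNNNGC was in 6 (15.8% against 14.0%) and in 0 of the 5 inducible genes. CCAAT was in 14 (36.8% against 41.1%), Psmb9 being 1 of them. The interferon-stimulated response element core, bound by IRF factors and searched as GAAA, 2 free bases and GAAA, was in 5 genes (13.2% against 3.99%). Of these 5 only Psme1 is an inducible gene, and the others were Psmb3, Psmd4, Psmd9 and Psmg4. Such matches describe letters in these windows and are not evidence of binding.

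Libraries held 14511177 to 28190157 counts in total, and the proteasome genes took 0.289 to 0.418% of the transcription start site (TSS) counts, 0.175 to 0.247% of the gene body counts and 0.329 to 0.430% of the transcription end site (TES) counts. The 3 libraries with the fewest counts were WT 1, WT 2 and knockout 1, and in each table they stood apart from the other 3 on the first principal component (46.1 to 60.9% of the variance). Depth class and genotype therefore overlap in part, and the values below are given per library. Genes of steroid-producing cortex cells had some of the highest RPB1 densities in WT glands, with Star, Cyp11b1, Cyp21a1, Nr5a1 and Scarb1 at or above percentile 98.9 of all genes, but the ACTH receptor gene Mc2r was at percentile 37.4. The tissue is a mixture, so more cells of a type and more polymerase per cell cannot be told apart.

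In WT glands most proteasome genes had a gene body RPB1 density above the median of all genes. Gene body density is given as CPM (the count scaled to a common library total) per kb of the RefSeq gene span. The median of the 45 genes was 3.13 CPM per kb, against 1.73 for all 12381 genes with a length. Of the 45, 40 lay above the all-gene median and 26 (57.8%) above percentile 75. The gene with the highest density was Psmb10, the inducible trypsin-like site, with 13.9, 10.96 and 17.8 CPM per kb in WT 1, 2 and 3, at percentile 98.3 of all genes. Psma2, an alpha ring gene, followed with 7.99, 7.73 and 8.29 CPM per kb. The WT spread of Psmb10 did not reach down to Psma2, so the first place in this order was clear of the second.

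By class the median WT density was 3.55 CPM per kb for the interferon-inducible genes, 3.19 for the alpha genes, 3.10 for the ATPases, 2.96 for the beta genes and 2.72 for the non-ATPases. The assembly chaperones had a median of 1.71 CPM per kb, near that of all genes, and a range of 1.04 to 3.13. The ranges of all these classes overlap, so the medians give no order. The lowest genes were the chaperones Psmd10, which encodes gankyrin, at 1.04 ± 0.0598 (SD, n = 3), and Psmg4 at 1.15 ± 0.108 (SD, n = 3). The inducible genes were also short, with a median length of 3.26 kb against 12.4 kb for the other 40 and 23.1 kb for all genes.

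**Figure D1:**
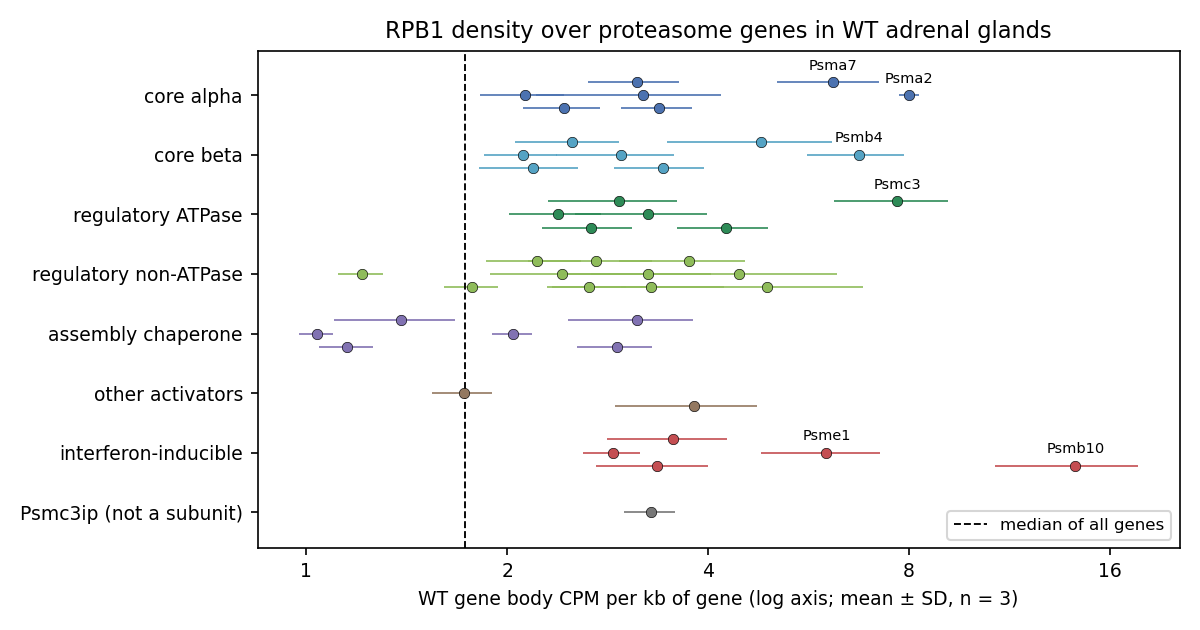
WT gene body density of the 45 proteasome genes by class, in CPM per kb of gene on a log axis (point: mean of 3 WT libraries; bar: SD), with the median of all genes as a dashed line. All but 5 points lie to the right of that line, and Psmb10 is farthest right at 14.2 CPM per kb.

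The shape of the signal along the gene followed gene length. The raw ratio of TSS to gene body counts in WT was highest for Psme2, a PA28 gene, at 1.33, and for Psmc3ip at 1.30. It was lowest for Psma6, an alpha gene, at 0.00691, and for Psmd1, the large scaffold of the regulatory particle base, at 0.0118. Psma6 had only 17, 7 and 15 TSS counts in WT 1, 2 and 3. The longest gene, Psme4 at 109.4 kb, had a higher ratio of 0.121, above that of Psma6 at 34.2 kb. Over the 45 genes this ratio had a Spearman correlation of -0.687 with gene length, against -0.684 over 12346 genes, and the TES to gene body ratio one of -0.760. The gene body count grows with the span over which it is taken, so part of this relation lies in the measure itself. Within the inducible class Psme2 and Psmb10 differed most in the mean TSS to gene body ratio, at 1.33 and 0.0995. In the WT libraries the TSS of Psme2 had 151.9, 91.01 and 143.3 CPM and that of Psmb10 35.9, 35.2 and 34.2 CPM. In the gene body the order of this pair was opposite, with 10.3, 9.65 and 11.7 CPM for Psme2 and 36.9, 29.2 and 47.4 CPM for Psmb10.

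In the comparison of knockout with WT, none of the 45 proteasome genes passed the test in any region. All 45 passed the low-count filter in each table. EdgeR quasi-likelihood F tests with Benjamini-Hochberg adjustment over each whole table called 0 of the 45 for the TSS (background 0.339% of 12682 genes), 0 for the gene body (0.252% of 12714) and 0 for the TES (0.915% of 12680). DESeq2 and limma-voom also called 0 in each region. At an unadjusted p under 0.05 the TSS had 1 gene (Psmb9), the gene body 2 (Psmb8 and Psmb9) and the TES 0, against 5.57%, 5.05% and 6.85% of all genes. Read as shares of 45, these counts are below the background. Knockout libraries lay all above or all below WT for 3 and 3 genes at the TSS (6.47% and 4.93% of all genes), 2 and 0 in the gene body (6.51% and 3.87%), and 2 and 2 over the TES (6.69% and 4.83%).

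The sizes were small for most of the genes, and the intervals bound them. For the gene body 43 of the 45 genes had a 95% confidence interval of the change within 2-fold in either direction, and 32 within 1.5-fold. At the TSS these counts were 40 and 18, and at the TES 42 and 14. The median log2 change of the 45 genes was 0.04 (TSS), -0.0035 (gene body) and -0.08 (TES), beside -0.01, -0.02 and -0.02 for all genes. Of the 45, 24 were on the higher side at the TSS (48.4% of all genes), 22 in the gene body (46.3%) and 18 over the TES (47.8%).

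**Figure D2:**
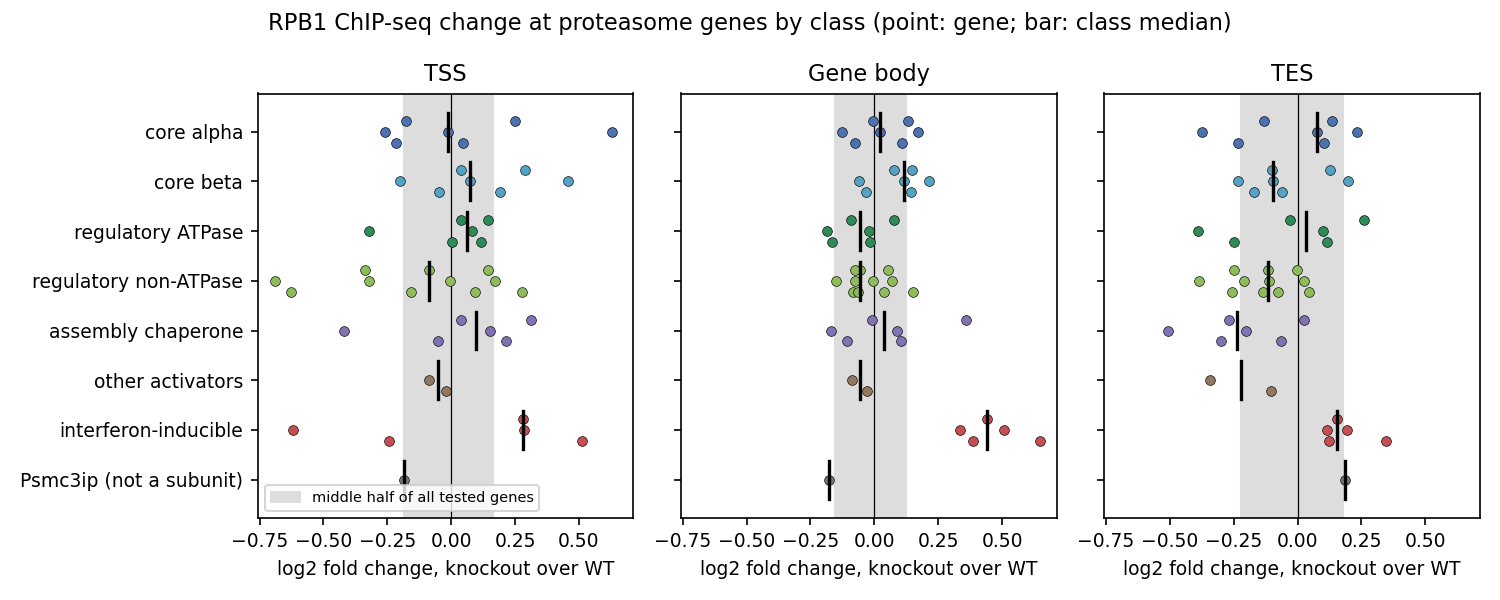
Log2 fold change (knockout over WT) of each proteasome gene by class at the TSS, gene body and TES (point: gene; black bar: class median; grey: middle 50% of all tested genes). In the gene body the 5 interferon-inducible genes sit between 0.33 and 0.65, to the right of the grey band, and no gene passed the test.

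The interferon-inducible genes had the 4 highest log2 changes of the 45 in the gene body, and the fifth ranked 6. All 5 had a higher knockout mean, by 0.33 to 0.65 on the log2 scale (median 0.44), and this direction held under every scaling, filter, covariate and left-out library tried. The median was 0.12 for the beta genes, 0.02 for the alpha genes, -0.06 for the ATPases and -0.06 for the non-ATPases. Since no inducible gene passed the test, and the difference between classes has no test here, these are descriptions of the 6 libraries. They are not independent evidence either, because the classes were compared with earlier results of these data known.

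Psmb8, the inducible chymotrypsin-like subunit, ranked first. Its gene body CPM was 13.3, 8.89 and 12.5 in WT 1, 2 and 3 and 14.6, 20.4 and 19.4 in knockout 1, 2 and 3. The knockout libraries all lay above the WT libraries, though knockout 1 was only just above WT 1. The difference was 0.65 ± 0.22 (SE) on the log2 scale, a 1.56-fold higher mean with a 95% interval of 1.10 to 2.22-fold, and the edgeR adjusted p was 0.715.

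Psmb9, the inducible gene whose product replaces the caspase-like subunit of Psmb6, came second. Its gene body CPM was 18.6, 14.1 and 20.8 in the WT libraries and 21.3, 31.6 and 23.3 in the knockout libraries. The groups did not overlap, with knockout 2 well above the rest. The log2 difference was 0.51 ± 0.22 (SE), or 1.42-fold with an interval of 1.01 to 2.01, at an edgeR adjusted p of 0.934.

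The other 3 inducible genes overlapped between groups. Psme1, the PA28 alpha gene, had 17.4, 15.1 and 22.3 CPM in WT, beside 20.3, 25.3 and 28.8 CPM in the knockout, a log2 difference of 0.44 ± 0.21 (SE). Psmb10 had 36.9, 29.2 and 47.4 CPM in WT, beside 45.1, 54.96 and 48.4 CPM in the knockout, a log2 difference of 0.38 ± 0.20 (SE). For both, WT 3 lay above knockout 1. Psme2, the PA28 beta gene, had 10.3, 9.65 and 11.7 CPM in WT, beside 10.54, 14.7 and 14.6 CPM in the knockout, a log2 difference of 0.33 ± 0.20 (SE). The edgeR adjusted p was 0.934 for each of these 3 genes.

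The constitutive genes that these subunits replace differed less. Psmb5, the chymotrypsin-like site, had 13.2, 11.2 and 15.3 CPM in the WT gene body and 14.5, 16.3 and 15.4 CPM in the knockout, a log2 difference of 0.21 ± 0.18 (SE). Psmb6, the caspase-like site, had 12.5, 8.64 and 15.4 CPM in WT, beside 12.7, 13.7 and 14.1 CPM in the knockout (0.14 ± 0.23, SE). Psmb7, the trypsin-like site, had 114.8, 105.3 and 134.2 CPM in WT, beside 101.0, 117.9 and 121.3 CPM in the knockout (-0.06 ± 0.15, SE). In each of the 3 the groups overlapped, and WT 2 was the lowest WT library.

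**Figure D3:**
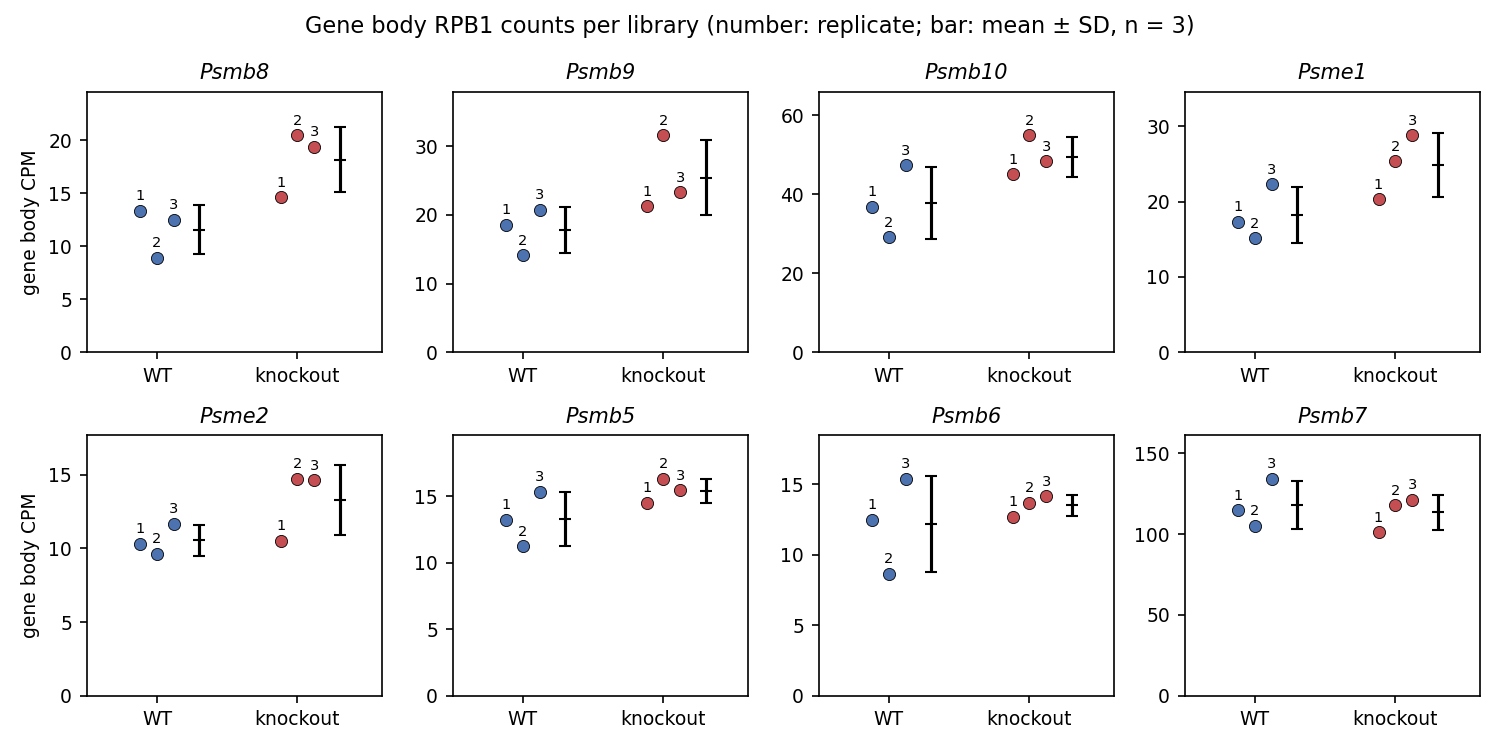
Gene body CPM of the 5 interferon-inducible genes and of Psmb5, Psmb6 and Psmb7 in each library (point with its replicate number; bar: mean ± SD, n = 3; axes start at 0). Knockout points lie above all WT points for Psmb8 and Psmb9 and overlap WT in the other panels.

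A ratio of the paired catalytic genes within a library does not depend on the scaling of that library. Per kb of gene, Psmb8 over Psmb5 was 1.20, 0.941 and 0.968 in the WT libraries and 1.20, 1.49 and 1.49 in the knockout libraries, so that WT 1 and knockout 1 were nearly equal. Psmb9 over Psmb6 was 0.711, 0.780 and 0.646 in WT and 0.802, 1.10 and 0.788 in the knockout. Psmb10 over Psmb7 was 6.75, 5.82 and 7.41 in WT and 9.37, 9.78 and 8.36 in the knockout. In all 3 pairs the knockout ratios lay above the WT ratios. The gap was narrowest for Psmb8 over Psmb5, with 1.199 in WT 1 and 1.20 in knockout 1, and it was narrow for Psmb9 over Psmb6. How many other gene pairs separate in this way was not counted. The numerators are the gene body values given above, so the ratios are not separate evidence. An exact two-sided permutation test of 3 against 3 libraries cannot go below p = 0.1, so these ratios are given as a description with no test.

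**Figure D4:**
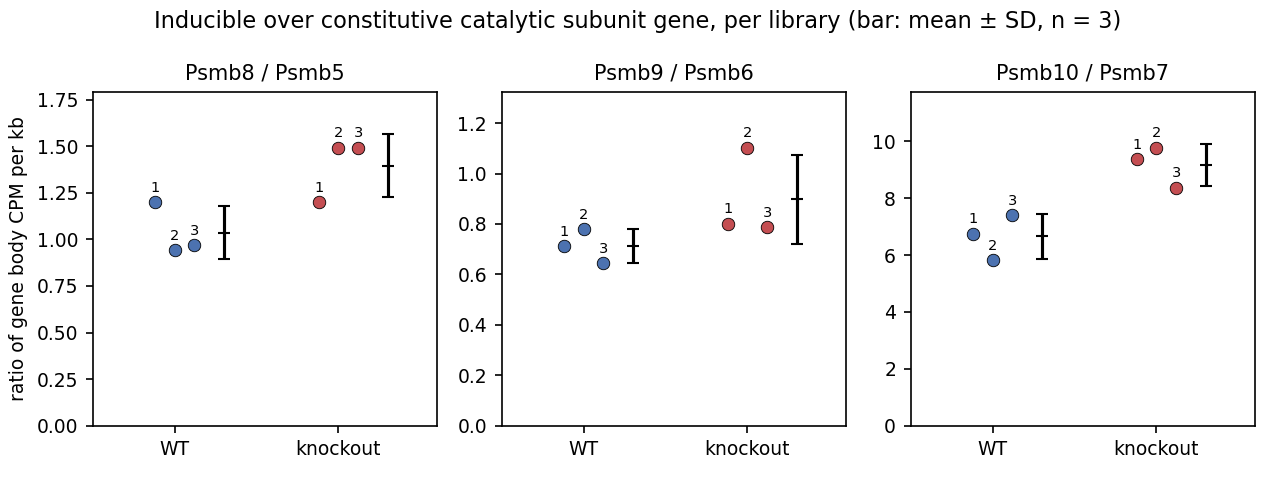
Ratio of gene body CPM per kb of each inducible catalytic gene to the constitutive gene it replaces, in each library (point with replicate number; bar: mean ± SD, n = 3). In all 3 panels the knockout points lie above the WT points, with means of 1.40 against 1.04, 0.898 against 0.712 and 9.17 against 6.66. For Psmb8 over Psmb5 the points of WT 1 and knockout 1 are nearly equal.

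At the TSS the inducible genes did not move as a class. Psmb9 had 47.9, 45.5 and 52.5 CPM in WT, beside 66.4, 72.6 and 69.9 CPM in the knockout. These groups were well separated, and the log2 difference was 0.51 ± 0.17 (SE), with an unadjusted p of 0.0134 and an edgeR adjusted p of 0.603. Psmb8 had 37.0, 36.2 and 41.0 CPM in WT, beside 48.4, 41.9 and 49.8 CPM in the knockout, a log2 difference of 0.28 ± 0.20 (SE) with groups that did not overlap. The starts of Psmb9 and Tap1, a peptide transporter gene of the MHC class I pathway, face away from each other with 226 bp between the genes, and Psmb8 begins 970 bp from the end of Tap1. Tap1 had 72.4, 64.1 and 81.3 CPM at its TSS in WT, beside 86.1, 132.8 and 93.3 CPM in the knockout. The window widths are not given, so these TSS counts may share reads.

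Psme2 had 151.9, 91.01 and 143.3 CPM at the TSS in WT, beside 154.2, 147.3 and 174.9 CPM in the knockout. Psmb10 had 35.9, 35.2 and 34.2 CPM in WT, beside 37.2, 25.5 and 27.1 CPM in the knockout. Psme1 had 39.2, 42.4 and 17.6 CPM in WT, beside 27.6, 15.3 and 20.9 CPM in the knockout. Psmb10 and Psme1 thus had lower knockout means at the TSS (log2 differences of -0.24 and -0.62) and higher gene body means. With the depth class as a covariate these TSS differences were -0.18 and -0.26. Under joint scaling, where the TSS median of all genes was 0.24, they were -0.0046 and -0.33. For both, the 3 libraries with the fewest counts were the 3 highest, across genotypes.

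At the TES all 5 inducible genes had a higher knockout mean, by 0.12 to 0.35 (log2), but their groups overlapped except at Psmb10. Psmb10 had 93.4, 78.4 and 79.6 CPM in WT, beside 105.8, 119.3 and 94.9 CPM in the knockout, a log2 difference of 0.35 ± 0.23 (SE) and an edgeR adjusted p of 0.897. Psmb9 had 59.1, 42.2 and 46.8 CPM in WT, beside 48.3, 58.0 and 58.5 CPM in the knockout. Psmb8 had 29.6, 48.0 and 42.0 CPM in WT, beside 30.7, 57.6 and 38.8 CPM in the knockout. Those of Psme1 ranged from 62.5 to 72.1 CPM in WT and from 59.0 to 80.9 CPM in the knockout, and those of Psme2 from 63.0 to 67.7 and from 67.4 to 83.6 CPM. The TES of Psme1 overlaps the neighbouring gene Emc9, so reads there may be shared.

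Among the constitutive core genes, the beta gene Psmb1 had the second smallest p of the higher genes at the TSS. Its TSS CPM was 99.1, 49.6 and 93.4 in WT and 86.1, 129.0 and 123.3 in the knockout, a log2 difference of 0.46 ± 0.24 (SE, edgeR adjusted p = 0.952), and WT 2 was far below the other libraries. The TSS values of Psmb5 were 60.4, 57.9 and 66.6 CPM in WT, beside 62.5, 74.8 and 42.4 CPM in the knockout. Those of Psmb6 were 94.2, 80.7 and 130.2 CPM in WT, beside 109.2, 133.1 and 135.4 CPM in the knockout. Those of Psmb7 ranged from 29.1 to 54.99 CPM in WT and from 28.2 to 45.6 CPM in the knockout. All of these groups overlapped. At the TES Psmb5 had 51.5, 33.3 and 62.5 CPM in WT, beside 44.5, 43.4 and 46.2 CPM in the knockout, Psmb6 ranged from 64.7 to 88.3 and from 57.6 to 72.8 CPM, and Psmb7 from 58.8 to 64.5 and from 59.0 to 83.6 CPM. Over the 14 core genes the gene body log2 differences ran from -0.13 to 0.21, with 9 on the higher side.

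The alpha gene Psma7 had the smallest unadjusted p of the 45 in the ratio of TES to gene body, without passing the test. Its ratio of TES to gene body CPM, each scaled within its own table, was 3.45, 4.09 and 4.03 in WT and 2.51, 2.52 and 2.84 in the knockout. All knockout ratios lay below the WT ratios, and how many other genes separate in this way was not counted. The log2 change of the ratio was -0.55 ± 0.18 (SE), with an unadjusted p of 0.00763 and an edgeR adjusted p of 0.751. Its ratio of TSS to gene body CPM was also below WT in all knockout libraries, 4.68, 4.90 and 4.22 against 3.28, 3.49 and 3.71, with a log2 change of -0.39 ± 0.17 (SE). Both ratios divide by the same gene body values, so the second is not a separate observation. Ss18l1 lies 19 bp from the start of Psma7 and Lsm14b 901 bp from its end, so reads at both ends may be shared. Of the 45 genes, 21 had a counted neighbour within 1000 bp, among them Psmc5, with Smarcd2 59 bp from its end.

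For the ratio tests as a whole, edgeR called 0 of the 45 genes for TSS to gene body (0% of 12679 genes) and 0 for TES to gene body (0.0158% of 12677). At an unadjusted p under 0.05 there were 0 and 2 genes (3.64% and 5.7% of all genes), the latter being Psma7 and the ATPase gene Psmc6. By comparison limma on the log2 ratios also called 0. Psmc6 had a TES to gene body ratio of 6.04, 6.03 and 6.07 in WT and 8.16, 8.49 and 7.69 in the knockout, opposite in direction to Psma7 (log2 change 0.42 ± 0.18, SE). The chaperone gene Psmg1 had a log2 change of -0.59 and Psmc3ip one of 0.36 in the same ratio. In the TSS to gene body ratio the log2 change was 0.36 for Psmd13 and 0.42 for Psmb1, on the higher side, and -0.65 for Psmb10 on the lower.

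Among the regulatory particle genes, 5 of 17 had a higher gene body mean, and their log2 differences ran from -0.19 to 0.15. The 2 lower genes with the smallest p were both ATPases. Psmc5 had 29.2, 25.01 and 34.2 CPM in WT, beside 26.0, 27.2 and 24.6 CPM in the knockout, and Psmc6 had 55.4, 42.3 and 56.5 CPM in WT, beside 45.1, 49.9 and 42.6 CPM in the knockout. In both the groups overlapped, and the log2 differences were -0.19 ± 0.16 and -0.17 ± 0.16 (SE), with edgeR adjusted p-values of 0.934. At the TES Psmc5 again had the lower knockout mean, with 134.8, 88.2 and 147.4 CPM in WT, beside 96.6, 99.2 and 89.5 CPM in the knockout. The TES of Psmc6 had the opposite order of means, with 334.7, 254.9 and 342.9 CPM in WT, beside 367.9, 423.2 and 327.5 CPM in the knockout.

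The lid genes Psmd11, Psmd6 and Psmd7 were lower at 1 end of the gene without passing the test. The TSS of Psmd11 had 82.2, 94.1 and 98.9 CPM in WT, beside 77.1, 70.4 and 70.6 CPM in the knockout, a log2 difference of -0.34 ± 0.16 (SE, edgeR adjusted p = 0.913). That of Psmd6 had 71.9, 54.8 and 56.3 CPM in WT, beside 52.3, 49.0 and 45.7 CPM in the knockout (-0.32 ± 0.19, SE). In both all knockout libraries lay below WT, and in the gene body the groups overlapped. The TES of Psmd7, the partner of the deubiquitinase gene Psmd14, had 71.5, 83.3 and 118.9 CPM in WT, beside 71.3, 61.2 and 78.7 CPM in the knockout, which overlapped (-0.39 ± 0.23, SE, edgeR adjusted p = 0.874).

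The 6 chaperone genes ran from -0.17 to 0.36 in the gene body, with 3 higher. Psmg4 held rank 5 of the 45, between Psmb10 and Psme2, with 18.0, 15.7 and 18.9 CPM in WT, beside 18.8, 22.5 and 26.1 CPM in the knockout (log2 difference 0.36 ± 0.18, SE, edgeR adjusted p = 0.934). Knockout 1 fell just under WT 3. At the TES 5 of the 6 chaperones were on the lower side, and Psmg1 was the lowest of all 45 genes at -0.51. The activators Psme3, which encodes nuclear PA28 gamma, and Psme4, which encodes PA200, had gene body log2 differences of -0.09 and -0.03.

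The proteasome genes also differed between libraries in a way that did not follow genotype. In the gene body 21 of the 45 genes (46.7%) were lower in each of the 3 libraries with the fewest counts than in any of the other 3, against 20.4% of all genes, and 2 (4.44%) showed the opposite, against 20.6%. These 21 included Psmb10, Psme1 and Psme2 of the inducible class and 5 of the 7 constitutive beta genes. In 40 of the 45 genes WT 2, the smallest library, was the lowest of the WT libraries in the gene body, against 25 at the TSS and 27 at the TES. The share of all genes with WT 2 lowest was not counted. At the TSS 9 genes (20.0%) were higher and 7 (15.6%) lower in the low-count libraries, near the 17.7% and 15.7% of all genes. The TSS of the lid gene Psmd8 had 65.3, 63.1 and 60.2 CPM in WT 1, WT 2 and knockout 1, and 14.4, 10.7 and 18.3 CPM in WT 3, knockout 2 and knockout 3. The TSS of Psmd1 behaved likewise, with 16.3 to 22.8 CPM against 4.16 to 9.88 CPM. With the depth class as a covariate, the median gene body log2 change of the inducible genes was 0.30 in place of 0.44, and 5 of 5 were still on the higher side. Leaving out 1 library at a time gave medians from 0.32 (without WT 2) to 0.61 (without WT 3).

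**Figure D5:**
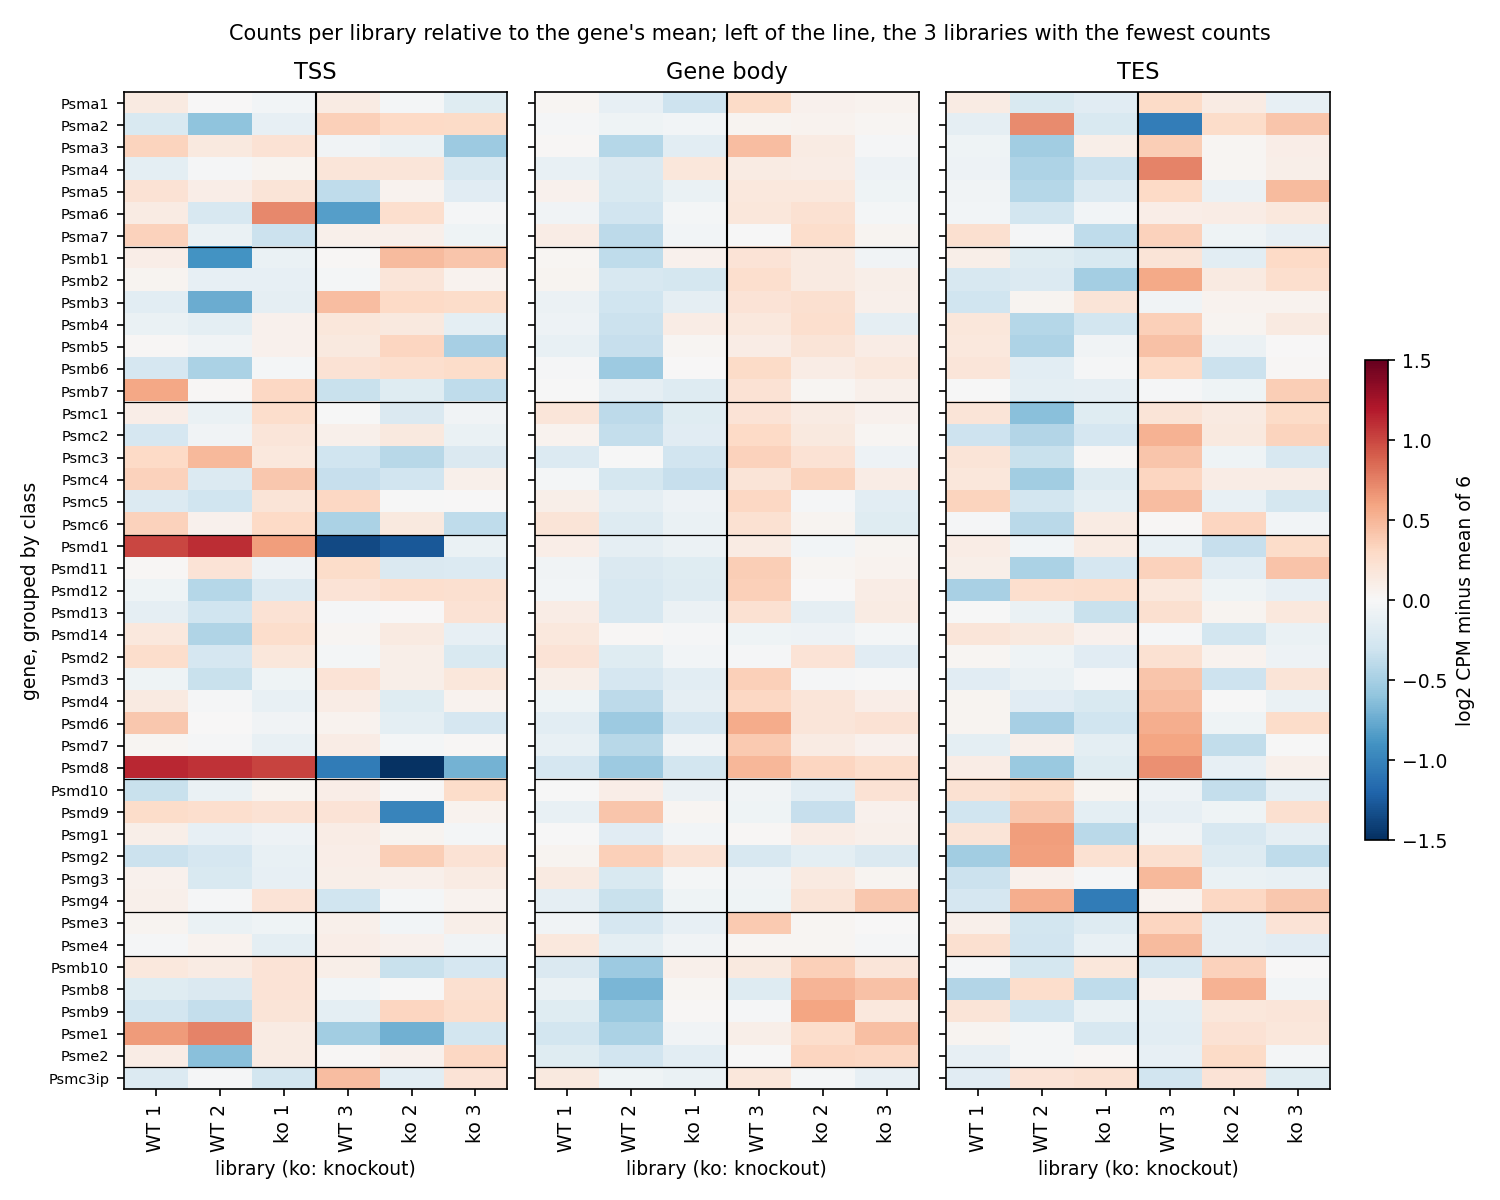
Log2 CPM of each proteasome gene in each library minus the gene's mean over the 6 libraries, at the TSS, gene body and TES (red: above the mean; blue: below). Libraries left of the line are the 3 with the fewest counts; at the TSS Psmd8 and Psmd1 are red there, and in the gene body most genes are blue in WT 2.

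Further genes related to the proteasome were compared as lists. Of 26 proteasome cofactor and transcription factor genes 21 were measured, and edgeR called 0 in any region. In the gene body 8 were on the higher side, and the median log2 change was -0.02. Ngly1, the glycanase that activates NFE2L1, had the smallest p of the list at the TSS, with 222.7, 236.8 and 248.3 CPM in WT, beside 176.2, 156.6 and 182.6 CPM in the knockout (log2 difference -0.46 ± 0.15, SE, edgeR adjusted p = 0.513). In the gene body its groups overlapped (log2 difference -0.13). Of 7 ubiquitin and E1 enzyme genes 0 were called. Uba7, the E1 of the interferon-induced modifier ISG15, had a gene body log2 difference of 0.28.

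The immunoproteasome partners in MHC class I antigen processing were mostly on the higher side in the gene body, with log2 differences from -0.15 to 1.02. The log2 change was above 0 for 13 of 14 genes in the gene body and 12 over the TES, with medians of 0.33 at both. At the TSS it was above 0 for 8 (median 0.02). EdgeR called 0 in all 3 tables. The gene body of Calr, the calreticulin chaperone gene, had 37.4, 33.1 and 46.3 CPM in WT, beside 61.3, 82.5 and 77.3 CPM in the knockout (log2 difference 0.92, edgeR adjusted p = 0.129). That of Tapbpl, a peptide editor gene, had 31.9, 25.7 and 40.5 CPM in WT, beside 51.0, 81.4 and 66.4 CPM in the knockout (1.02, edgeR adjusted p = 0.201). Tap1 had 20.3, 17.5 and 20.6 CPM in WT, beside 26.0, 30.8 and 24.9 CPM in the knockout (0.48, edgeR adjusted p = 0.660). In all 3 genes the knockout libraries lay above WT.

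The interferon signalling list held genes that did pass the test. Irf8, a transcription factor gene of myeloid cells and of the interferon response, rose in the gene body from 72.1, 54.6 and 56.0 CPM in WT to 133.2, 139.0 and 128.2 CPM in the knockout (2.19-fold, edgeR adjusted p = 0.0383). It also rose at the TES (2.04-fold, edgeR adjusted p = 0.0117). Irf9, a transcription factor gene of the type I interferon response, rose in the gene body from 25.4, 25.8 and 28.4 CPM to 51.8, 52.5 and 50.2 CPM (1.94-fold, edgeR adjusted p = 0.0436). Irf7, a regulator of type I interferon genes, rose at the TSS from 110.0, 104.5 and 88.3 CPM to 200.9, 186.7 and 226.1 CPM (2.04-fold, edgeR adjusted p = 0.0200). These were 2 of 15 genes for the gene body (0.252% of all genes called) and 1 each for the TSS (0.339%) and TES (0.915%). The list was chosen with earlier results of these data known, so these counts are not independent evidence. The TES call of Irf8 held on leaving out each library in turn (edgeR adjusted p up to 0.0461) but not under joint scaling (0.0553). The gene body calls of Irf8 and Irf9 were lost in most of these fits, with edgeR adjusted p-values from 0.0459 to 0.271 for Irf8 and from 0.0520 to 0.308 for Irf9 on leaving out 1 library, and also under joint scaling (0.148 and 0.122) and with the mouse number series as a covariate (0.09997 and 0.122). The TSS call of Irf7 ended without WT 1, WT 2, knockout 2 or knockout 3 (edgeR adjusted p from 0.0946 to 0.154). In the gene body 10 of the 15 were on the higher side, with a median log2 change of 0.19.

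Markers of immune cells were read beside these genes, since such cells carry immunoproteasomes. Of 12 macrophage and myeloid markers 8 were measured, and their summed gene body CPM was 136.0 to 146.3 in WT and 129.3 to 156.2 in the knockout. Of 12 lymphocyte markers 2 were measured (Lck and Ptprcap), with gene body sums of 64.5 to 74.8 in WT and 73.4 to 77.3 in the knockout. Their TSS sums went the other way without overlap, with 49.6 to 67.0 CPM in WT and 33.1 to 41.1 CPM in the knockout. Their TES sums were 58.6 to 63.7 CPM in WT and 60.3 to 72.05 CPM in the knockout. At the TES the myeloid sum was 623.6 to 694.9 in WT and 730.3 to 777.4 in the knockout. Without Cd68, the marker with the highest TES values, it was 311.8 to 366.7 and 274.4 to 360.3, and 5 of the 8 markers were on the lower side. The myeloid TSS sum was 194.9 to 250.5 in WT and 183.2 to 203.7 in the knockout. None of these markers had a count of 0 in any library. The 6 medulla markers had gene body sums of 241.7 to 466.6 in WT and 326.1 to 902.8 in the knockout, the highest in knockout 2, which was also the highest library for Psmb8, Psmb9 and Psmb10 in the gene body. All 6 had higher knockout means over the gene body and TES, with median log2 changes of 0.83 and 0.63, and edgeR called 0. Of 5 endothelial markers 4 were measured, and all 4 had log2 changes below 0 over both regions. Their medians were -0.20 and -0.17, with 0 called. The TES change of Kdr was only -0.00052, with mean CPM of 87.5 in WT and 88.4 in the knockout. The gene body sums of the 4 markers were 386.9 to 531.9 CPM in WT and 384.8 to 415.7 CPM in the knockout. The part of cell composition in the proteasome values was not tested.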

How the data were processed

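RPB1 ChIP-seq counts of 6 libraries were analysed, grouped by the sample titles and genotype labels, with n = 3 per genotype. The authors deposited whole-number read counts of each gene in 3 region tables (TSS, gene body, TES) and a joint table of 38154 rows that stacks these 3 tables (0 cells differed). The log2 CPM values that the authors also deposited followed the voom formula on the joint counts and were not used further. The submitters' processing notes name GRCm38 and mm10 and, without roles, the tools bcl2fastq 2.20, BWA, Trimmomatic, MACS2, Picard, limma, edgeR and HOMER. Not given in the sources used here are the counting tool, strand setting, read filters, input libraries, window widths and choice of genes.

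Each whole table was fitted with edgeR 4.0.16 in R 4.3.3 (TMM scaling, filterByExpr minimum count 10, minimum total 15, quasi-likelihood F test, no covariate), and p-values were adjusted by Benjamini-Hochberg over all tested genes, with calls at an adjusted p under 0.05. The SE is the log2 change over the square root of F. Ratios of regions were tested as the interaction of region and genotype, blocked by library. CPM values are scaled by TMM. Densities use RefSeq GRCm38.p6 gene spans, which may differ from the counted windows. Counting error is only part of the spread between libraries, since replicates differed by 12.3 to 65.0 times the sampling variance per degree of freedom.

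The alternatives were RLE, total and joint scaling, no filter, a filter of 20 counts in 3 libraries, DESeq2 1.42.0, limma-voom (limma 3.58.1), the replicate number, the mouse number series or the depth class as a covariate, and leaving out each library. For the ratios they were RLE scaling, gene body scaling, limma on log2 ratios (prior count 2), the replicate number, the depth class and left-out libraries. The tests were also run on simulated data, and the settings and results of those runs are not given here. Named genes were the inducible genes, their constitutive counterparts, the 2 genes per table and direction with the smallest p, the 2 highest and lowest by density and by TSS ratio, and up to 3 called genes per list (otherwise the 2 with the smallest p, in part given as counts). Psma7 and Psmg1 at single ends, Psmg4, Psmd8, Psmd1, Psme3, Psme4 and Tap1 were named after their values were seen. Some genes of these lists are not reported here by name. The proteasome genes, classes and lists were chosen with earlier results of these data known. The labels give separate mouse numbers, so libraries were taken as separate animals. Promoter motifs were searched with Python 3.11.15.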

Additional observations from a re-analysis of the deposited data

How the results depend on the processing

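The number of proteasome genes called was 0 in every table and ratio under every alternative. Calls over whole tables were 43 (TSS), 32 (gene body) and 116 (TES), and they ranged over the alternatives from 5 to 158, from 0 to 179 and from 61 to 194. For the ratios they went from 0 to 27 (TSS) and from 0 to 15 (TES). With the replicate number as a block they were 100, 0 and 194, and the gene body calls of Irf8 and Irf9 were lost (edgeR adjusted p = 0.238 and 0.258). The numbers were not taken to pair the libraries, since deviations of same-numbered libraries correlated at 0.44, -0.21 and 0.36 (TSS), 0.08, -0.58 and 0.27 (gene body) and 0.03, -0.31 and 0.21 (TES). Of 6 libraries, 3 (TSS) and 2 (gene body, TES) correlated best with their own number. Joint scaling moved the median log2 change of all genes to 0.24 (TSS) and to -0.12 (gene body and TES), so signs there are relative to that shift.

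Small differences changed sign in some settings, with no call on either side, and the cause was not tested. TSS Psmb5 was at 0.054 with table totals and 0.207 with joint scaling, and from -0.25 to 0.153 on leaving out 1 library, above 0 without WT 3 (0.018) and knockout 3. TSS Psmb7 was at 0.063 with joint scaling and 0.0058 with the depth class, and from -0.42 (without WT 3) to 0.090 (without WT 1). Gene body Psmb6 ran from -0.045 (without WT 2) to 0.342 (without WT 3), and Psmb7 from -0.135 (without WT 2) to 0.040 (without WT 3), with 0.018 without knockout 1. TES Psmb8 was at -0.015 with the depth class, and from -0.172 (without knockout 2) to 0.285 (without knockout 1), with -0.060 without WT 1. TES Psmb5 ran from -0.362 (without WT 2) to 0.046 (without WT 3) and TES Psmb7 from -0.048 (without knockout 3) to 0.211 (without knockout 1). The 5 inducible genes stayed on the higher side of the gene body in each setting, and 4 of 5 did at the TES with the depth class, without WT 1 and without knockout 2.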
